A study of Mus musculus with 6 samples.

Results

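Ran, importins and the nuclear pore protein Nup62 form the machinery that carries proteins into the nucleus and that, in dividing cells, switches spindle proteins on near chromosomes. Values are given here for 10 genes of that machinery, which are Ran, Rcc1, Rangap1, Ranbp1, Kpna2, Kpna3, Kpna6, Kpnb1, Ipo5 and Nup62, in testes of mice with a knockout of the kinesin KIFC1. They were taken by name, with each Ensembl identifier matched to its symbol in the GENCODE mouse annotation, from 51826 genes listed. All 10 were found, and all 10 passed the filter on low counts that left 21518 genes to test. Bulk RNA of whole testis was sequenced from C57BL/6J mice at 8 weeks of age, in 3 KIFC1 knockout samples (KO1, KO2 and KO3) and 3 wild-type samples (WT1, WT2 and WT3). The labels do not describe the knockout allele or say whether KIFC1 was removed in all cells or in germ cells alone. Nor do they state whether each sample is a different animal, and the p-values hence cover spread among the sequenced samples alone, part of which may be technical.

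Ran is a small GTPase that is kept in its GTP form in the nucleus by Rcc1, a nucleotide exchange factor bound to chromatin, and in its GDP form in the cytoplasm by Rangap1, which triggers GTP hydrolysis with the help of Ranbp1. Importin alpha proteins (the Kpna genes) recognise nuclear localisation signals, importin beta (Kpnb1) takes the pair through the pore, and Ran-GTP releases the cargo inside. After the nuclear envelope breaks down, the same release frees spindle assembly factors near chromosomes. KIFC1, a motor that moves to microtubule minus ends, carries such a signal, and in human cells and frog egg extracts importins hold KIFC1 or its frog counterpart off microtubules until Ran-GTP removes them. In rodent spermatids KIFC1 has also been found with Nup62.

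The targeted gene followed the labels. Kifc1 (ENSMUSG00000079553) stood at 0.326, 0.737 and 0.282 CPM (counts scaled to a common library total) in knockout samples, against 15.5, 16.1 and 14.7 CPM in wild type, and was called lower at -5.09 on the log2 scale (SE 0.35, edgeR adjusted p = 0.00378). Its paralog Kifc5b, which may share reads with it, had 4.16, 6.83 and 3.32 CPM in knockout, against 8.43, 9.29 and 9.50 CPM in wild type, and did not pass (-0.93, edgeR adjusted p = 0.0744). Kifc5b was called lower without KO2 (-1.28, edgeR adjusted p = 0.013) and by DESeq2 on all 6 libraries (DESeq2 adjusted p = 0.0196). With trends in GC content and exon length removed it was at -0.60 (edgeR adjusted p = 0.278). CPM here are scaled by TMM, a correction for differences in library make-up. Library totals ran from 29274603 to 38703606 counts, and the 10 genes had between 834 (Kpna3 in WT3) and 60521 counts (Ipo5 in KO2) in a library. KO2 stood apart from the other knockout libraries, with a chi-square per degree of freedom of 135.1 against KO1 and 123.4 against KO3, where KO1 and KO3 gave 31 and the wild-type pairs 15.4 to 50.3. Mitochondrial genes took 5.74%, 1.54% and 4.29% of counts in KO1, KO2 and KO3, against 0.661% to 0.935% in wild type. Genes called higher in knockout had a median GC content of 42.4%, genes called lower 55.9% and all genes tested 49.0%. Fold changes of the 10 genes are therefore also given without KO2 and after removal, library by library, of trends with GC content and with exon length. Whether these trends are technical or reflect real differences between the samples was not tested, and their removal takes out both. Prm1, which encodes a protamine of spermatids, stood at 1771 to 2316 CPM in knockout and 2907 to 3730 CPM in wild type. Of 4 markers of epididymis, a neighbouring tissue, Lcn5, Adam7 and Crisp1 were at 0 counts in every library, and Defb21 had 20 to 39 counts in knockout and 25 to 37 in wild type.

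Of the 10 genes, Kpna3 rose and Ran and Rangap1 fell in knockout testes, and 7 did not pass the test (edgeR quasi-likelihood test over all genes, Benjamini-Hochberg adjusted p under 0.05). Of all genes tested, 3.11% were called higher, 5.12% lower and 8.23% either way, so that 1 and 2 of 10 members are read against those shares. At an unadjusted p under 0.05 there were 4 of 10 members, Rcc1 being the fourth, against 27.1% of all genes. All 3 knockout libraries lay below all 3 wild-type libraries for Ran, Rcc1 and Rangap1, as for 18.1% of all genes, and above them for Kpna3, as for 14.6% of all genes. The median log2 fold change, knockout over wild type, was -0.10 over the 10 genes and -0.01 over all genes tested. In whole testis, fewer cells of a type and less RNA per cell cannot be told apart.

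**Figure D1:**
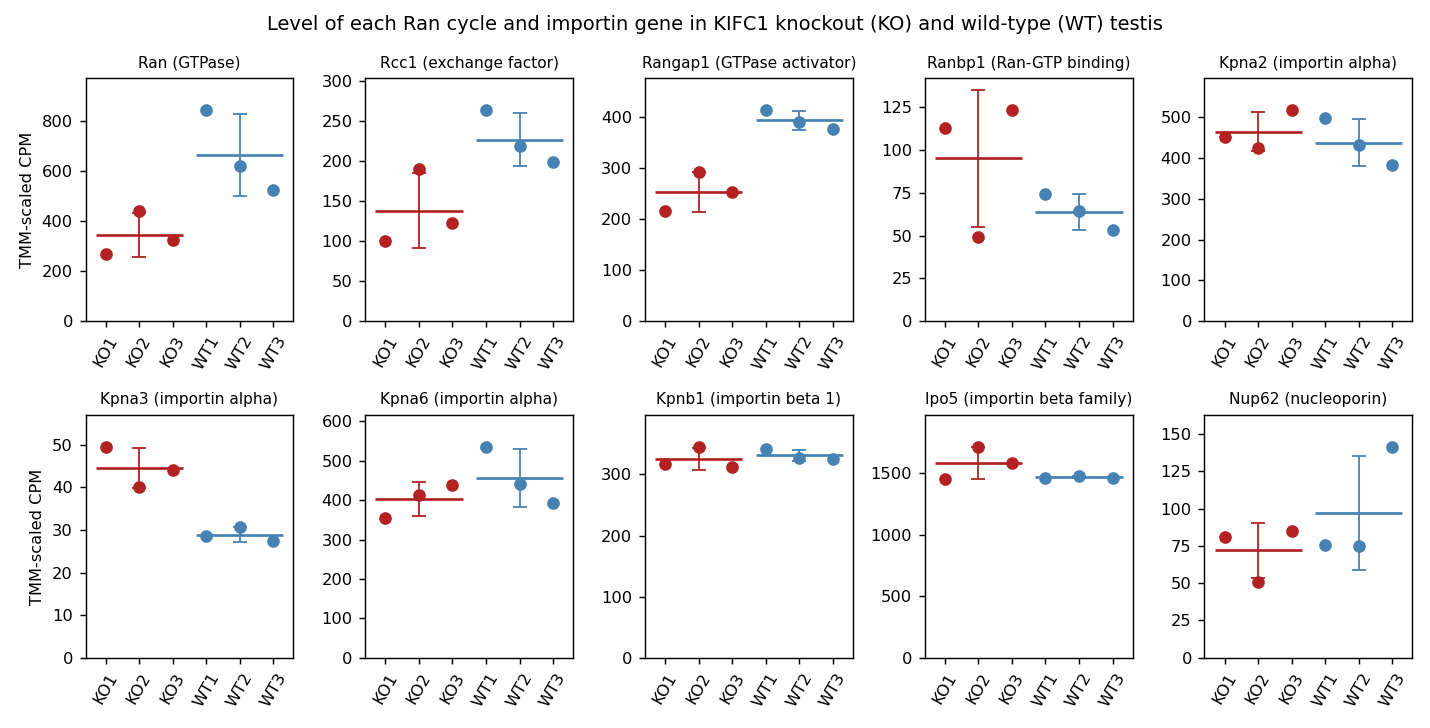
Level of each of the 10 genes in TMM-scaled CPM (vertical axis, from 0) in the 3 knockout (red) and 3 wild-type (blue) libraries. Each point is a library, each horizontal line a group mean and each bar 1 SD. Knockout points lie below wild-type points for Ran, Rcc1 and Rangap1 and above them for Kpna3, and KO2 is the low knockout point for Ranbp1 at 49.2 CPM.

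Ran itself (ENSMUSG00000029430, chromosome 5, 129020069 to 129024323, plus strand, GRCm38) had 269, 441 and 324 CPM in KO1, KO2 and KO3, against 842, 618 and 525 CPM in WT1, WT2 and WT3. The groups did not overlap, and KO2 was the knockout library nearest to wild type. Mean levels were 345 ± 87.7 CPM in knockout and 662 ± 163 CPM in wild type (SD, n = 3 each). The log2 fold change was -0.94 (SE 0.23, edgeR adjusted p = 0.0426), and knockout testes held 52.1% of the amount in wild type. Without KO2 it was -1.16 (edgeR adjusted p = 0.0167). With the GC and length trends removed the fold change was of like size, -1.004, and the call was lost (edgeR adjusted p = 0.0585). On that trend-removed scale the libraries stood at 272, 414 and 319 CPM in knockout, against 814, 638 and 564 CPM in wild type, again without overlap.

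The Ran level is uncertain because mouse testis also expresses Rasl2-9 (ENSMUSG00000083649, chromosome 7, 5124938 to 5125950, minus strand), a Ran-like gene whose coding sequence is 94.6% identical to that of Ran, with 35 differing bases of 648. The longest stretch without a difference is 77 bases. The first 120 coding bases of each, from GENCODE transcripts on GRCm38, show how similar the reads of both are. Capitals mark the 8 positions in this stretch at which they differ.
Ran: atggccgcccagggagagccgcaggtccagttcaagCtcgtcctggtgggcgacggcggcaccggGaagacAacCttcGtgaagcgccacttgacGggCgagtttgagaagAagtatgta
Rasl2-9: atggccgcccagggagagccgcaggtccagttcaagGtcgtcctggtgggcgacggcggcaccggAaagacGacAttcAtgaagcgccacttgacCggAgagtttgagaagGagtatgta
Rasl2-9 had 75.6, 134 and 96.7 CPM in knockout, against 255, 163 and 139.5 CPM in wild type, and it did not pass the test (log2 fold change -0.87, SE 0.27, edgeR adjusted p = 0.081). Without KO2 it was called at -1.11 (edgeR adjusted p = 0.0346), with the trends also removed at -1.04 (edgeR adjusted p = 0.0152), and by DESeq2 on all 6 libraries (DESeq2 adjusted p = 0.0208). Its order over the libraries was that of Ran, lowest in KO1 and highest in WT1. Per kilobase of exon, the ratio of Rasl2-9 to Ran was 0.735, 0.791 and 0.779 in knockout and 0.790, 0.689 and 0.694 in wild type, and the groups overlapped. A processed pseudogene with 97.3% identity to Ran over 662 bases, Gm13461, had 3.10, 9.78 and 6.13 CPM in knockout, against 16.0, 10.5 and 9.33 CPM in wild type. It did not pass the test (edgeR adjusted p = 0.173) and was called without KO2 at a log2 fold change of -1.38 (edgeR adjusted p = 0.0455).

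Rangap1 (ENSMUSG00000022391, chromosome 15, 81704248 to 81745530, minus strand), the activator of GTP hydrolysis by Ran, had 215, 292 and 253 CPM in knockout, against 414, 390 and 378 CPM in wild type. Every knockout library was below every wild-type library. The means were 254 ± 38.6 CPM in knockout and 394 ± 18.6 CPM in wild type (SD, n = 3 each), which is -0.64 on the log2 scale (SE 0.15, edgeR adjusted p = 0.0397). Without KO2 it was -0.75 (edgeR adjusted p = 0.0138). With the trends removed it shrank to -0.35 (edgeR adjusted p = 0.276), and KO2, at 349 CPM on that scale, came to lie above WT3 at 327 CPM. Rangap1 has a GC content of 55.4%, close to the median of the genes called lower. Its gene shares 474 bases with Zc3h7b on the opposite strand, and the strand setting of the counting is not given in the sources used here.

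Rcc1 (ENSMUSG00000028896, chromosome 4, 132331919 to 132353605, minus strand), which loads Ran with GTP, had 100.4, 191 and 123 CPM in knockout, against 264, 218 and 199 CPM in wild type. The groups did not overlap, but KO2 and WT3 were close together. Means were 138 ± 47.0 CPM in knockout and 227 ± 33.4 CPM in wild type (SD, n = 3 each), and the log2 fold change of -0.72 did not pass the test (SE 0.24, edgeR adjusted p = 0.094). Without KO2 it was -1.02 and was called (edgeR adjusted p = 0.0128). With the trends removed it was -0.49 in all 6 libraries (edgeR adjusted p = 0.289) and -0.85 without KO2 (edgeR adjusted p = 0.0218). On that trend-removed scale KO2, at 215 CPM, lay above WT2 at 202 CPM and WT3 at 182 CPM. The Rcc1 gene overlaps the small nucleolar RNA host gene Snhg3 on its own strand over 5592 bases, and Snhg3 held 3.82 to 9.67 CPM in knockout and 6.16 to 9.86 CPM in wild type. It also shares 1611 bases with the noncoding gene Gm17300 on the opposite strand. Gm17300 held 9.725 to 15.05 CPM in knockout and 6.018 to 7.075 CPM in wild type. Per kilobase of exon, the ratio of Rangap1 to Rcc1 was 1.70, 1.21 and 1.63 in knockout and 1.24, 1.41 and 1.51 in wild type, with overlapping groups.

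Ranbp1 (ENSMUSG00000005732, chromosome 16, 18239784 to 18248732, minus strand) binds Ran-GTP and helps Rangap1 to act on it. It had 113, 49.2 and 123 CPM in KO1, KO2 and KO3, against 74.3, 64.3 and 53.1 CPM in wild type. KO1 and KO3 were above all wild-type libraries, while KO2 was below all of them. The log2 fold change over all libraries was 0.58 (SE 0.31, edgeR adjusted p = 0.271) and did not pass the test. Without KO2 it was 0.89 (edgeR adjusted p = 0.0165), and 0.93 with the trends also removed (edgeR adjusted p = 0.00727). Leaving out that library alone therefore makes Ranbp1 a called gene. Per kilobase of exon, the ratio of Ranbp1 to Ran was 0.668 in KO1 and 0.604 in KO3, but 0.177 in KO2, against 0.140, 0.165 and 0.161 in wild type. Ranbp1 shares 54 bases with Trmt2a on the opposite strand, which had 16.7 to 20.6 CPM in knockout and 27.5 to 33.8 CPM in wild type.

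Promoters of Ran and Ranbp1, which lay on opposite sides of wild type in KO1 and KO3, and of Rangap1, which fell with Ran, are shown for the bases 250 before to 50 after the gene start (RefSeq, GRCm38.p6). They lie at chr5:129019906-129020205 on the plus strand, chr16:18248645-18248944 on the minus strand and chr15:81729870-81730169 on the minus strand. The RefSeq start of Rangap1 lies inside the span given above, whose upstream end comes from a GENCODE transcript with an earlier start. Capitals mark matches to GCGC, any 2 bases, then GCGC, a motif of the transcription factor NRF1 that reads the same on both strands.
Ran: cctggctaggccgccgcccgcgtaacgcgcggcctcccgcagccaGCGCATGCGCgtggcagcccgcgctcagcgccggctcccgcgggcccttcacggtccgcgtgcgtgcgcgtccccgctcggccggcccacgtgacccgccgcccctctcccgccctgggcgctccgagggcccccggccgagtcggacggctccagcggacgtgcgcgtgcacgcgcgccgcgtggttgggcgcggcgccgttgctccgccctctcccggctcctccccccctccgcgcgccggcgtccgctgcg
Ranbp1: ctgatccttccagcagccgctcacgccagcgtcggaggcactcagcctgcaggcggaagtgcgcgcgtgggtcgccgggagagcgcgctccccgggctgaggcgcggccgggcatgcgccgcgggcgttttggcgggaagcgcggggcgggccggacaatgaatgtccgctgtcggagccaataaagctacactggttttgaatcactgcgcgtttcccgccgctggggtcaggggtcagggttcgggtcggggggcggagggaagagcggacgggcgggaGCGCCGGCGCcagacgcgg
Rangap1: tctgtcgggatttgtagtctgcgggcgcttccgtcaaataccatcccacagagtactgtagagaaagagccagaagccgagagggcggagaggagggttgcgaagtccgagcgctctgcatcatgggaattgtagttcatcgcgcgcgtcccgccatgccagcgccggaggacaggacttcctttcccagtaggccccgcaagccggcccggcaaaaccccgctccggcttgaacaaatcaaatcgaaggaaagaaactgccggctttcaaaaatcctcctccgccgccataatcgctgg
A match was present in the promoters of Ran, Ranbp1 and Nup62 among the 8 members with an entry, and in 6.23% of all 32851 promoters of that length. The Ran promoter is 82% G or C with 58 CpG dinucleotides and that of Ranbp1 72%, against a median of 52.7% over all promoters. Of the other motifs searched on both strands, CCAAT was found for 5 members and in 37.4% of all promoters, TGACG for 3 members and in 20.8%, and AACNGNC, a MYB motif, for Rangap1 alone and in 32.8%. The full cyclic AMP response element TGACGTCA, which contains TGACG, was in none of the members' promoters and in 1.79% of all. These matches describe letters in a window. Of the genes with the NRF1 letters Ran fell and Ranbp1 and Nup62 did not pass the test, and Rangap1 fell without them.

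Of the importin alpha genes, Kpna3 (ENSMUSG00000021929, chromosome 14, 61365211 to 61439874, minus strand) was the one that rose. It had 49.5, 40.2 and 44.1 CPM in knockout, against 28.6, 30.8 and 27.4 CPM in wild type. All knockout libraries were above all wild-type libraries, and KO2 was again the nearest of them to wild type. Means were 44.6 ± 4.71 CPM in knockout and 28.9 ± 1.70 CPM in wild type (SD, n = 3 each), which is 0.62 on the log2 scale (SE 0.15, edgeR adjusted p = 0.0407). Without KO2 it was 0.69 (edgeR adjusted p = 0.0215). Kpna3 has the lowest GC content of the 10 genes, 39.6%, and with the trends removed its fold change shrank to 0.29 (edgeR adjusted p = 0.331), or 0.42 without KO2 (edgeR adjusted p = 0.0657). On the trend-removed scale KO2 stood at 32.0 CPM, inside the wild-type range of 31.3 to 34.9 CPM.

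Kpna2 (ENSMUSG00000018362, chromosome 11, 106988629 to 106999541, minus strand), the most abundant importin alpha gene in these testes, had 453, 424 and 518 CPM in knockout, against 498, 433 and 383 CPM in wild type. The groups overlapped at a difference of 0.09 on the log2 scale (SE 0.16, edgeR adjusted p = 0.762), or 0.15 without KO2 (edgeR adjusted p = 0.53). Its level is uncertain because the annotation holds 10 other genes with a match of at least 500 bases and 90% identity, of which 5 reached 1 CPM in a library. Gm10184, 99.9% identical over 1968 bases, had 52.5, 38.8 and 62.6 CPM in knockout, against 37.4, 29.4 and 27.9 CPM in wild type. Gm10259, 99.8% identical, had 45.1, 34.5 and 56.2 CPM in knockout, against 32.1, 25.5 and 24.3 CPM in wild type. For both copies every knockout library was above every wild-type library, and neither passed the test (edgeR adjusted p = 0.0727 for Gm10184 and 0.0658 for Gm10259). Without KO2 both were called, with log2 fold changes of 0.87 (edgeR adjusted p = 0.0212) and 0.89 (edgeR adjusted p = 0.0209). How the authors treated reads that fit several places is not given in the sources used here, so Kpna2 and its copies cannot be told apart. The other matching genes at 1 CPM or more were the processed pseudogenes Gm12919 and Gm13310, and Med20. Med20 is a longer gene (7324 exon bases) that matches Kpna2 over 1891 bases at 92.6% identity. It had 6.57 to 10.4 CPM in knockout and 11.6 to 15.4 CPM in wild type.

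Kpna6 (ENSMUSG00000003731, chromosome 4, 129643980 to 129672767, minus strand), the second importin alpha gene by level, had 355, 414 and 438 CPM in knockout, against 535, 441 and 392 CPM in wild type. The groups overlapped at a difference of -0.18 on the log2 scale (SE 0.16, edgeR adjusted p = 0.515), or -0.20 without KO2 (edgeR adjusted p = 0.459). Ran, Rcc1, Rangap1 and Kpna6 had their highest value in WT1 and their lowest in KO1, a pattern of 4 of 10 members and 11.8% of all genes that was picked out after the values were seen. Differences for these genes are therefore widest between those libraries.

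As shares of the summed CPM per kilobase of all 6 importin alpha genes, Kpna3 made up 4.77%, 3.87% and 3.68% in knockout, against 2.35%, 2.92% and 2.99% in wild type. Kpna6 made up 21.8%, 25.5% and 23.4% in knockout, against 28.1%, 26.8% and 27.3% in wild type. Both shares were without overlap between the groups, Kpna3 with the higher and Kpna6 with the lower share in knockout. They were taken without removal of the GC and length trends, and the separation of Kpna6 is not shown to outlast that removal. With the trends removed, the Kpna6 level in KO2, at 409 CPM, lay above that in WT3, at 383 CPM. Kpna2 made up 65.2%, 61.2% and 64.8% in knockout, against 61.2%, 61.5% and 62.4% in wild type, with overlapping groups. The sum itself was 242, 241 and 278 CPM per kilobase in knockout, against 283, 245 and 213 in wild type. Importin alpha transcripts as a class therefore had overlapping levels in both groups. Shares of a sum are not independent of each other, and they carry the doubt about the Kpna2 copies.

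**Figure D2:**
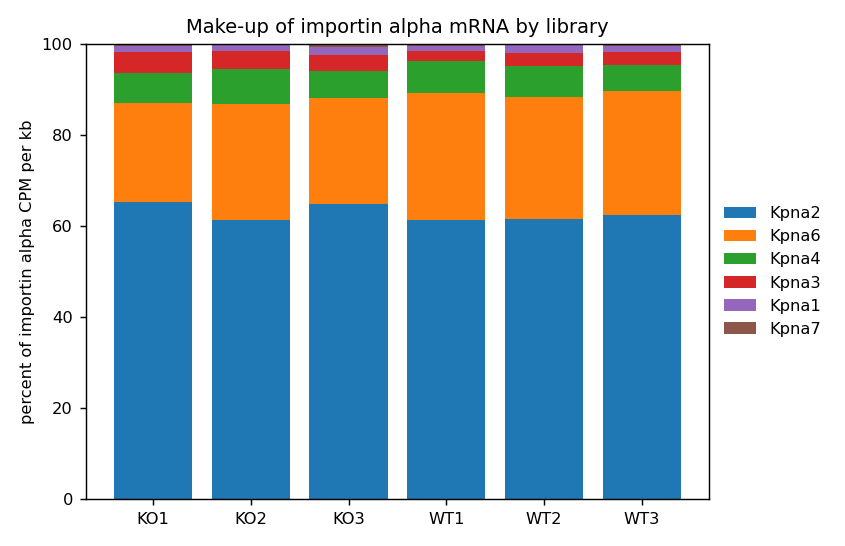
Share of each importin alpha gene (percent, vertical axis) in the summed CPM per kilobase of the 6 importin alpha genes, for each of 3 knockout and 3 wild-type libraries. Kpna2 makes up 61.2% to 65.2% everywhere, and the Kpna6 band is thinner in knockout (21.8% to 25.5%) than in wild type (26.8% to 28.1%). GC and length trends were not removed here.

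Neither importin beta gene passed the test. Kpnb1 (ENSMUSG00000001440, chromosome 11, 97159714 to 97187881, minus strand), the partner of importin alpha, had 317, 345 and 312 CPM in knockout, against 341, 327 and 326 CPM in wild type. Its log2 fold change was -0.03 (SE 0.13, edgeR adjusted p = 0.911), or -0.07 without KO2 (edgeR adjusted p = 0.682). Ipo5 (ENSMUSG00000030662, chromosome 14, 120911224 to 120947999, plus strand), which imports ribosomal proteins and histones, had 1450.5, 1716 and 1583 CPM in knockout, against 1466, 1482 and 1460.5 CPM in wild type, a difference of 0.11 on the log2 scale (SE 0.14, edgeR adjusted p = 0.653), or 0.05 without KO2 (edgeR adjusted p = 0.804). For both genes the groups overlapped. After removal of the trends, log2 fold changes were -0.16 for Kpnb1, -0.06 for Ipo5, -0.04 for Kpna2 and -0.26 for Kpna6, and none of these was called (edgeR adjusted p from 0.438 to 0.906). A processed pseudogene of Ipo5, Gm14857, had 0.951 to 1.56 CPM in knockout and 0.458 to 0.592 CPM in wild type.

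Nup62 (ENSMUSG00000109511, chromosome 7, 44816088 to 44830812, plus strand), a protein of the central channel of the pore, had 80.8, 50.9 and 84.8 CPM in knockout, against 75.6, 74.8 and 142 CPM in wild type. KO2 was low and WT3 high, while the other 4 libraries lay close together. The log2 fold change of -0.43 did not pass the test (SE 0.29, edgeR adjusted p = 0.373) and was -0.09 with the trends removed (edgeR adjusted p = 0.869). It was -0.23 without KO2 and -0.06 without WT3 (edgeR adjusted p = 0.618 and 0.905). The level is uncertain, because Nup62 lies over 14426 bases on the same strand as Il4i1, which encodes an amino acid oxidase. Il4i1 had 65.5, 110.0 and 107 CPM in knockout, against 186, 154 and 150.5 CPM in wild type (log2 fold change -0.80, SE 0.21, edgeR adjusted p = 0.0531). The Il4i1 values did not follow those of Nup62 over the libraries: WT3 was the lowest wild-type library for Il4i1 and the highest for Nup62. Without KO2 Il4i1 was called at -0.92 (edgeR adjusted p = 0.0349). Atf5, a transcription factor gene that shares 571 bases with Nup62 on the opposite strand, had 15.0, 1.47 and 14.5 CPM in knockout, against 6.96, 8.86 and 15.5 CPM in wild type. Like Nup62 it was lowest in KO2 and highest in WT3.

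Across genes, levels were compared per kilobase of exon. In knockout the order was Ipo5 (264 ± 22.1 CPM per kilobase), Kpna2 (162 ± 16.7), Ran (130.3 ± 33.2), Kpna6 (59.8 ± 6.35), Ranbp1 (57.2 ± 24.1), Rangap1 (52.2 ± 7.95), Kpnb1 (49.3 ± 2.72), Rcc1 (35.9 ± 12.2), Nup62 (25.3 ± 6.48) and Kpna3 (10.4 ± 1.10), as means ± SD over 3 libraries. The ranges of neighbours in that order overlapped except between Ipo5 and Kpna2, between Ran and Kpna6, and between Nup62 and Kpna3. In wild type Ran came first, at 250.1 ± 61.7 CPM per kilobase, followed by Ipo5 at 245 ± 1.88 and Kpna2 at 152 ± 20.2. By its mean Ran was thus the third of the 10 transcripts in knockout and the first in wild type, although its 3 wild-type libraries, at 198 to 318, spanned the level of Ipo5.

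Calls of the 3 genes lay near the threshold. They held without KO2, and depended on the GC and length trends and on the scaling and filter. Without KO2, Ranbp1 and Kpna3 were called higher and Ran, Rcc1 and Rangap1 lower, where 6.62% of all genes were called higher, 7.69% lower and 14.3% either way. With the trends removed in all 6 libraries none of the 10 was called, where 0.0744%, 0.409% and 0.483% of all genes were. With the trends removed and KO2 left out, Ranbp1 was called higher and Ran, Rcc1 and Rangap1 lower, where 6.66%, 7.12% and 13.8% of all genes were called. The DESeq2 Wald test on all 6 libraries called Kpna3 higher and Ran, Rcc1 and Rangap1 lower, where 8.42%, 9.92% and 18.3% of all genes were called. In edgeR with DESeq2 size factors Kpna3 alone was called (7.59% of all genes were), and Ran just missed the threshold at an edgeR adjusted p of 0.0502. None of the 10 was called with scaling by library size alone (7.29% of all genes were) or with no filter on low counts (2.91% were), where edgeR adjusted p-values of Ran, Rangap1 and Kpna3 ran from 0.0528 to 0.0676. Leaving out any 1 of the 5 libraries other than KO2 ended all 3 calls. In all 21 alternatives, Ran, Rcc1, Rangap1 and Kpna6 kept a negative and Ranbp1 and Kpna3 a positive fold change.

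**Figure D3:**
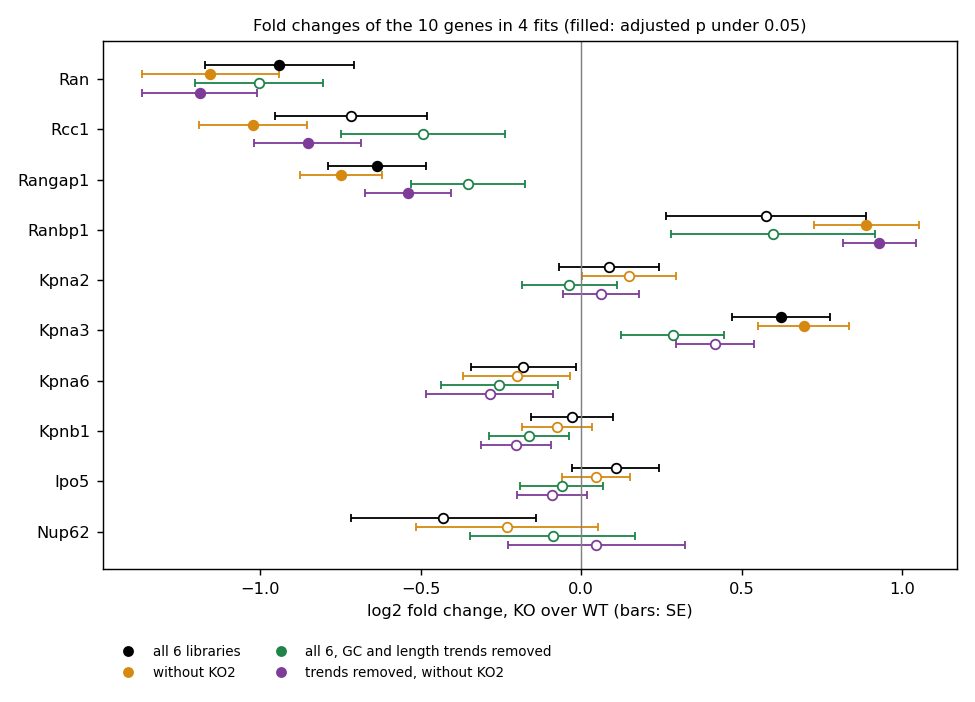
Log2 fold change of each of the 10 genes, knockout over wild type (horizontal axis), with bars of 1 SE, in 4 edgeR fits: all 6 libraries, without KO2, with GC and length trends removed, and both. Filled points have an adjusted p under 0.05. Ran lies between -0.94 and -1.19 in all 4 fits, and Kpna3 moves from 0.62 to 0.29 when the trends are removed in all 6 libraries.

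The summed levels of cell type markers were set beside these genes, since Ran, Rcc1 and Rangap1 were lower in all knockout libraries. Markers of elongating spermatids (Prm1, Prm2, Tnp1, Tnp2 and Odf1, which pack the sperm nucleus and build the tail) summed to 10518 to 11869 CPM in knockout, against 15539 to 17443 CPM in wild type, without overlap. For Tnp1 and Odf1 alone the groups overlapped. Prm1 and Tnp2 were called lower among these 5, and none was at 0. With the trends removed neither was called, at log2 fold changes of -0.39 for Prm1 (edgeR adjusted p = 0.186) and -0.22 for Tnp2 (edgeR adjusted p = 0.401). The sums overlapped for spermatocytes (2526 to 3001 CPM in knockout, 2643 to 2955 CPM in wild type, with Sycp1 called higher among 5), round spermatids (752 to 1002 CPM in knockout, 745 to 891 CPM in wild type) and spermatogonia (88.1 to 97.7 CPM in knockout, 74.9 to 97.0 CPM in wild type). Sycp1, of the synaptonemal complex, had a log2 fold change of 0.90 (edgeR adjusted p = 0.0214), and 0.24 with the trends removed (edgeR adjusted p = 0.344). The sums also overlapped for Sertoli, Leydig, peritubular myoid, macrophage and endothelial markers, and none of these markers was called. Within them, every knockout library was above wild type for Wt1 (Sertoli, log2 fold change 0.87) and Cyp17a1 (Leydig, 1.10). Knockout lay below wild type for Cnn1 (peritubular myoid, -0.33), and the rest overlapped. Sums are set by their most abundant genes, such as Hspa2 for spermatocytes (mean 1717 CPM in knockout, 1748 CPM in wild type). Among round spermatid markers, every knockout library was above wild type for Acrv1 and below it for Tssk1, while Spaca1, Acr and Catsper3 overlapped. An overlapping sum hence does not show that a cell type was unchanged. Erythroid markers summed to 22.2 to 35.4 CPM in knockout, against 36.9 to 63.7 CPM in wild type, with Alas2 called lower among 3. Alas2 was not called with the trends removed (-0.75, edgeR adjusted p = 0.0624). The part of these shifts in the levels of Ran, Rcc1 and Rangap1 was not tested.

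The wider transport machinery held 64 other genes, of which 63 were tested, as Ranbp3l was at 0 in every library. They were listed from textbook knowledge, with earlier results of these data known. Ranbp2 and Tpr rose, and Ranbp3, Rangrf and Ipo13 fell. These 2 and 3 of 63 genes make up 3.17% and 4.76%, beside 3.11% and 5.12% of all genes tested, and the list's median log2 fold change was -0.03. The called genes included 3 of the 7 tested genes of the Ran cycle, a class that includes Ran-like and Ran-binding genes, and 2 of the other 56. Of all genes tested, 8.23% were called either way, and whether calls gather in this class was not tested. Without KO2, 5 genes of the list were called higher (Ranbp2, Cse1l, Nup62cl, Pom121 and Tpr) and 7 lower (Rasl2-9, Ranbp3, Rangrf, Ipo13, Tnpo2, Nup85 and Sec13). In that fit 6.62% of all genes were called higher and 7.69% lower. With the trends removed none of the list was called in all 6 libraries, where 0.0744% of all genes were higher and 0.409% lower. With KO2 also left out, 3 of the list were higher and 8 lower, where 6.66% and 7.12% of all genes were.

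Among the genes that act on Ran, Ranbp3, a cofactor of the export receptor Xpo1, had 118, 138 and 140.5 CPM in knockout, against 255, 219 and 203 CPM in wild type (log2 fold change -0.77, SE 0.15, edgeR adjusted p = 0.0224). Rangrf, which loosens the hold of Ran on its nucleotide, had 66.6, 94.9 and 73.5 CPM in knockout, against 173, 134 and 127 CPM in wild type (log2 fold change -0.89, SE 0.19, edgeR adjusted p = 0.0287). Ranbp2, the pore protein that anchors Rangap1 at the cytoplasmic face, had 142, 144 and 118 CPM in knockout, against 77.1, 91.1 and 89.7 CPM in wild type (log2 fold change 0.65, SE 0.15, edgeR adjusted p = 0.0344). The groups did not overlap for any of them. Rangap1 and the gene for its anchor thus differed in opposite directions. With the trends removed, Ranbp2 (GC content 40.6%) had a log2 fold change of 0.17 (edgeR adjusted p = 0.417), whereas Ranbp3 (-0.69, edgeR adjusted p = 0.0824) and Rangrf (-0.70, edgeR adjusted p = 0.0646) were closer to their first values.

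Among import receptors, Ipo13, a receptor that carries some cargoes in and others out of the nucleus, had 161, 124 and 182 CPM in knockout, against 262, 259 and 273 CPM in wild type (log2 fold change -0.76, SE 0.16, edgeR adjusted p = 0.0303). With the trends removed Ipo13 (GC content 57.5%) was at -0.41 (edgeR adjusted p = 0.113). Tnpo2, a transportin, did not pass the test at a log2 fold change of -0.46 (edgeR adjusted p = 0.0744), and neither did the remaining 9 import receptors. The export receptors Cse1l, which returns importin alpha to the cytoplasm, and Xpo1 had log2 fold changes of 0.40 (edgeR adjusted p = 0.12) and 0.39 (edgeR adjusted p = 0.121), and none of 7 export genes passed. The other importin alpha genes did not pass either, with log2 fold changes of 0.62 for Kpna7, 0.08 for Kpna4 and 0.08 for Kpna1.

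Of 31 nucleoporins other than Nup62, only Tpr passed the test. Tpr, which forms the basket on the nuclear side of the pore, had 159, 123 and 129.7 CPM in knockout, against 62.0, 82.5 and 89.5 CPM in wild type (log2 fold change 0.81, SE 0.18, edgeR adjusted p = 0.0327). Every knockout library was above every wild-type library. Nup85, of the outer ring, had a log2 fold change of -0.59 (edgeR adjusted p = 0.059). The membrane nucleoporin Pom121, named after its values were seen, had 602, 135 and 624 CPM in KO1, KO2 and KO3, against 167, 253 and 324 CPM in wild type. As for Ranbp1, KO1 and KO3 were above and KO2 below all wild-type libraries. How many of all genes share that order was not counted. The spindle factors that importins hold inactive, as they do KIFC1, did not pass the test: Nusap1 had a log2 fold change of 0.29 (edgeR adjusted p = 0.285), Tpx2 of 0.22 (edgeR adjusted p = 0.322), Dlgap5 of 0.28 and Numa1 of -0.04.

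**Figure D4:**
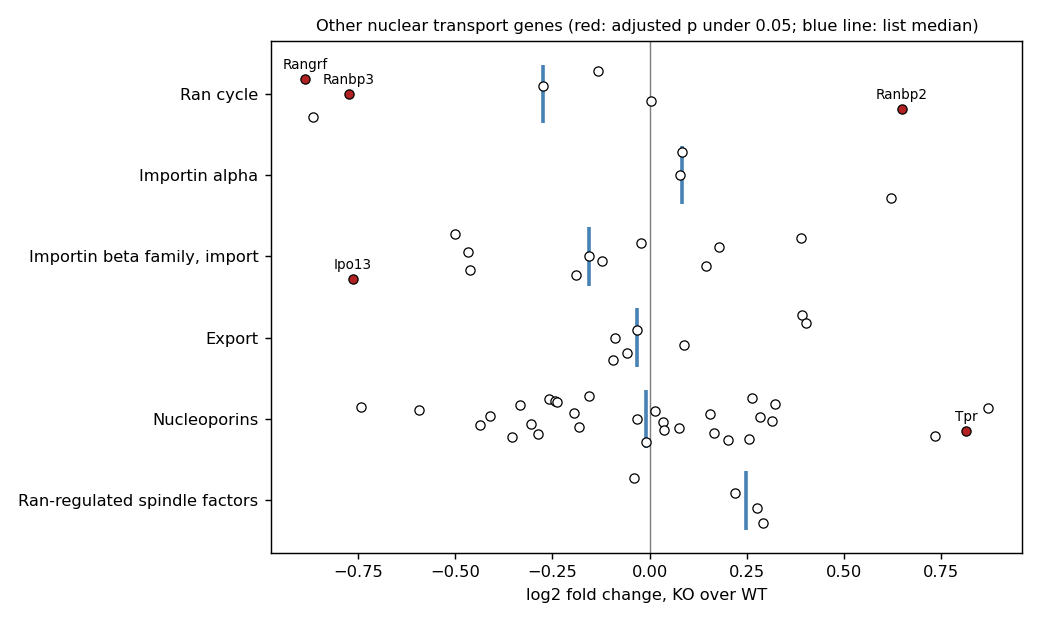
Log2 fold change, knockout over wild type (horizontal axis), of the 63 tested genes of the wider nuclear transport list, by class (vertical axis). Each point is a gene, red points have an adjusted p under 0.05 in the edgeR fit to all 6 libraries, and blue lines are class medians. Rangrf, Ranbp3 and Ipo13 are on the left, Ranbp2 and Tpr on the right, and the median of the Ran cycle class lies at -0.27.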

How the data were processed

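Testis RNA was sequenced in 3 KIFC1 knockout and 3 wild-type samples, grouped by the genotype in the labels. The authors deposited 1 table per sample of raw counts, with no normalization. The submitters' processing notes name Trimmomatic, HISAT2, HTSeq and the genome build mm10, without versions. Symbols, coordinates, exon lengths and GC content came from GENCODE M21 (GRCm38). The main test was edgeR 4.0.16 (R 4.3.3), with filterByExpr, TMM scaling, the quasi-likelihood F test (two-sided) and no covariates, and genes were called at a Benjamini-Hochberg adjusted p under 0.05 over 21518 genes. SE came from the fold change and its F statistic. Alternatives were DESeq2 1.42.0, other scalings and filters, a replicate block, each library left out, and offsets removing each library's spline trend (5 degrees of freedom, fitted on 12707 genes) with GC content and exon length. Combining those offsets with leaving out a library was chosen after seeing the data. The fit was tested on simulated data. Sequence matches, here called copies, were found with BLAST 2.17.0. A count of 3, the limit that a count of 0 allows, equals 0.0775 to 0.103 CPM by library total, without TMM scaling. It covers counting error only. The members and lists were chosen with earlier results of these data known. Named genes were the members, Kifc1, copies at 1 CPM or more, all called genes of the wider list and the 2 smallest p of each class.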

Additional observations from a re-analysis of the deposited data

How the results depend on the processing

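Among all genes, 669 were called higher and 1101 lower. With no filter these were 370 and 640, with the DESeq2 Wald test 1503 and 1771, with trends removed 16 and 88, with the replicate block 8 and 13, and with both 1 and 6. Leaving out 1 library gave 0 to 1457 higher and 1 to 1692 lower, with both highest counts without KO2. With the trends also removed, counts were 1466 higher and 1567 lower without KO2, and 0 or 1 higher and 0 or 3 lower otherwise. Of the members, 1 was called higher and 2 lower. Library size alone, no filter, trends removed, the replicate block and both gave 0 and 0, and DESeq2 size factors 0 lower. Leaving out 1 library gave 0 to 2 higher and 0 to 3 lower, with the highest counts without KO2. With trends removed and a library other than KO2 left out, both were 0. Of the wider list, 2 were higher and 3 lower. Library size alone and no filter gave 1 higher, the block, the trends and both 0 and 0, and DESeq2 7 lower. Leaving out 1 library gave 0 to 5 higher and 0 to 7 lower, and with trends removed 8 lower without KO2 and 0 otherwise. Kifc1 lost its call with trends removed without WT2 (-4.71) and without KO3 (-4.43). By the longest transcript, Kpna2 made up 68.0% of importin alpha in knockout and 66.0% in wild type, Kpna3 3.31% and 2.22%, and Kpna6 21.2% and 24.7%.

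None of the fold changes below, whose sign reversed, was called. With trends removed, Kpna2 was at -0.038, with the block too at -0.045, and without WT2, WT3, KO1 and KO3 at -0.037, -0.092, -0.039 and -0.12. It lay between -0.0035 and 0.21 when 1 library was left out, and Kpnb1 between -0.074 and 0.017. Ipo5 with trends removed was at -0.061, with the block too at -0.064, and at -0.016, -0.058, -0.083, -0.00074, -0.091 and -0.082 without WT1, WT2, WT3, KO1, KO2 and KO3. Nup62 with trends removed was at 0.28 without WT3 and 0.048 without KO2. Causes were not tested. Leaving out a library also leaves fewer samples.

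Samples that share a number did not vary together (correlations of -0.29, -0.06 and -0.13 over 21518 genes), so the numbers are not taken to pair them. With the replicate block Ran was at an edgeR adjusted p of 0.11. The median fold change of all genes stayed within 0.1 of 0 on the log2 scale in all settings.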
